A study of Mus musculus with 17 samples.

Results

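The genes described here are the short entries of the transcript annotation with lengths around that of 5S ribosomal RNA, from 6 nt below 119 nt to 3 nt above it. Rows were taken by this range of 10 lengths, from the size column of the deposited tables. The range itself was picked with the high counts of such rows at 50 to 150 nt already known, so their share of that library is a description. Of the 37991 Ensembl transcripts in these tables, 482 fall in the range. There are 120 of 119 nt, 99 of 121 nt, 40 of 116 nt, and 19 to 44 of each of the other 7 lengths. Each transcript is a row of the tables and is called a row below.

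As background, 5S ribosomal RNA is the small RNA of the large ribosomal subunit that is made by RNA polymerase III, and mammalian genomes carry it in clustered gene copies and in many scattered, partly degenerate copies. Other RNAs of similar length include spliceosomal snRNAs, which act in splicing, snoRNAs, which guide the modification of ribosomal RNA, and microRNA hairpins. MAEL (Maelstrom) belongs to the germ cell machinery that keeps transposons silent, together with PIWI proteins and the piRNAs that guide them.

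The files do not pair the transcript identifiers with gene names, and 0 of the 482 identifiers matched the reference tables, so which rows are 5S ribosomal RNA cannot be told from them. RefSeq (assembly GRCm38.p6) shows what kinds of gene have these lengths. It lists 117 pseudogenes, 61 rRNA genes, 57 miRNA hairpins, 49 snoRNA genes, 16 snRNA genes and 2 guide RNA genes in the range. All 61 rRNA genes are 119 nt (29) or 121 nt (32) long, and 51 of them carry a 5S name. Of those with a 5S name, 26 are 119 nt and 25 are 121 nt long. RefSeq lists 0 rRNA genes of 116 nt, the length at which it lists 9 of its 16 snRNA genes. For the same reason the tissue label could not be checked against marker genes.

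The study compared wild-type and Mael-/- testes of 129SvJae mice and the RNA bound by MAEL. Of its 17 libraries, 9 hold counts on these rows. From wild-type testis, anti-MAEL immunoprecipitation gave 2 libraries of long, fragmented RNA (replicates a and b), 1 library of RNA selected at 50 to 150 nt and 1 selected at 15 to 50 nt. Rabbit IgG, the background antibody, gave 1 long-RNA library. Total small RNA of 15 to 50 nt, with no antibody, came from wild-type testis (2 libraries) and from Mael-/- testis (2 libraries). All these libraries come from whole testis, so fewer cells of a type and less RNA per cell cannot be told apart. The labels give no age and do not describe the Mael allele. Nor do they state that 2 libraries of a group are 2 animals, so the p-values reflect the spread between libraries, and that spread may be technical. The 4 mRNA and 4 footprint tables list all 482 rows with 0 counts. Only 1 row has a coding size there.

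The size-selected libraries were the deepest, with totals of 68922710 (50 to 150 nt) and 172728187 counts (15 to 50 nt). The 3 long-RNA libraries held 5747210 (anti-MAEL a), 10863053 (anti-MAEL b) and 7785650 counts (IgG). Small RNA totals were 44416966 and 7776989 in wild type, and 21884714 and 4831638 in Mael-/-. Levels below are in CPM, counts scaled to a library total of 1000000, and are compared between rows only because these rows have nearly the same length. Shares of a single library carry an exact binomial 95% interval. These intervals, and the limit of 3 counts that a count of 0 allows, treat counts as independent and describe at most the counting error. The labels name no molecular identifiers, and reads may be copies of 1 molecule. Many rows also have near-identical counts, described below, so the intervals are too narrow for sums over such rows.

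The genes held 55.7% of the counts in the 50 to 150 nt fraction bound by anti-MAEL (38415715 counts, 95% interval 55.7% to 55.7%). No IgG library of this size was analysed here, so the background of the antibody was not measured at this size. Their share was 5.26% (5.26% to 5.26%) at 15 to 50 nt, 10.6 times lower (18.5 times with 1 row kept of each set of rows with near-identical counts, described below). In long RNA it was 10.005% (9.98% to 10.03%) in anti-MAEL replicate a and 3.89% (3.88% to 3.91%) in replicate b, a mean of 6.95% ± 4.32 (SD, n = 2). The IgG library held 4.07% (4.05% to 4.08%), between the anti-MAEL libraries, so the long-RNA groups overlapped. In wild-type small RNA the share was 0.359% and 0.321%, a mean of 0.340% ± 0.0274 (SD, n = 2). In Mael-/- small RNA it was 2.25% and 2.14%, a mean of 2.19% ± 0.0746 (SD, n = 2). Both Mael-/- libraries lay above both wild-type libraries, and the ratio of the means was 6.45. Over Ensembl rows alone, leaving out the piRNA loci, the means were 1.98% and 7.95% and their ratio was 4.01.

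Neighbouring lengths held less of the 50 to 150 nt library, which is a description, since the range was picked with its high counts there known. The 2044 Ensembl rows of 50 to 99 nt held 3.14% of it, the 1389 rows from 100 nt to just below the range held 5.05%, and the 1667 rows from just above it to 200 nt held 10.4%. The ratio of Mael-/- to wild-type small RNA shares was 4.70, 4.78 and 0.356 in these 3 ranges, against 6.45 for the range described here.

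The counts sat on few of the 482 rows. In all 9 libraries together 77 rows had 0 counts, 253 had fewer than 1000 and 152 had at least 1000. Of these 152, 71 were 119 nt long, 53 were 121 nt and 12 were 116 nt. At 50 to 150 nt, 291 rows had at least 1 count and 48 of them held 90% of the counts on these genes. At 15 to 50 nt, 374 rows had a count and 60 held 90%. In each of the long-RNA libraries 40 rows held 90%. In small RNA this took 79 and 80 rows in wild type, and 56 and 61 rows in Mael-/-.

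Sorting the rows by length separated the libraries. The rows of 119 nt held 36.0% of the 50 to 150 nt library and those of 116 nt 18.8%, and the rows of 121 nt only 0.189%. At 15 to 50 nt the 121 nt rows came first instead of last: they held 4.20%, while 119 nt rows held 0.522% and 116 nt rows 0.431%. In long RNA nearly all counts lay on 119 nt rows, with 6.90% ± 4.30 (SD, n = 2) for anti-MAEL and 4.04% for IgG. In small RNA the 119 nt rows also led, with 0.256% ± 0.0263 in wild type and 1.94% ± 0.125 in Mael-/- (SD, n = 2 each).

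**Figure D1:**
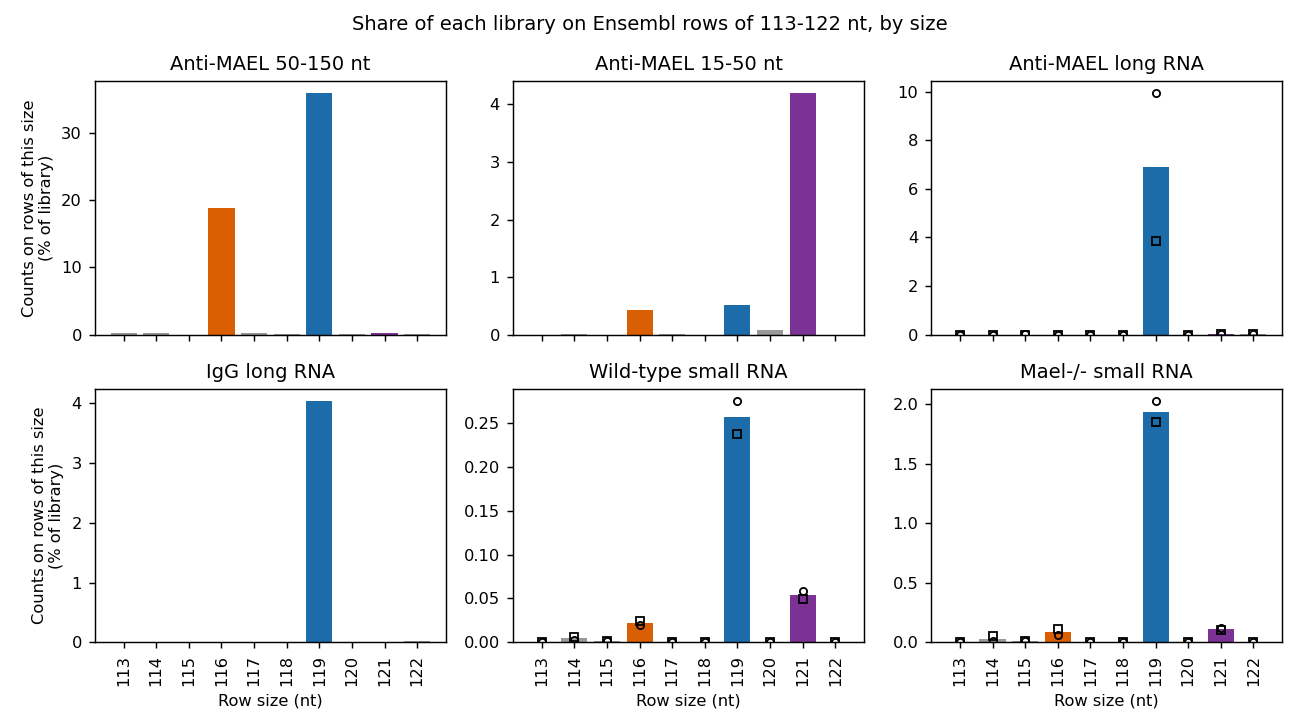
Share of each library's counts (percent, each panel on its own scale from 0) on rows of each of the 10 lengths. Bars are the library's share or the mean of 2 libraries, with replicate a as a circle and replicate b as a square; rows of 119 and 116 nt lead at 50 to 150 nt (36.0% and 18.8%), rows of 121 nt lead at 15 to 50 nt (4.20%), and rows of 119 nt lead in the other 4 panels.

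The other 223 rows, of the remaining 7 lengths, held little. Their largest summed share of the 50 to 150 nt library was 0.198%, on the 44 rows of 114 nt, and their largest share at 15 to 50 nt was 0.0857%, on the 43 rows of 120 nt. In long RNA the rows of the greatest length held 0.0175% ± 0.00669 (SD, n = 2) with anti-MAEL and 0.0218% with IgG.

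Many rows carried the same counts, which bears on every sum over rows. With rows joined where all 9 counts differed by at most 5 counts or 5%, among rows with at least 1000 counts in all, 86 rows fell into 12 sets. The largest set was 32 rows of 119 nt, among them ENSMUST00000097236. Its rows had 565615 to 565773 counts at 50 to 150 nt, an SD of 35.4 counts where independent counting at that depth would give 752. In anti-MAEL replicate a the same rows had 13989 to 13992 counts, an SD of 0.740 against 118.3. The spread was thus far below counting noise, while the assignment of reads that match more than 1 row is not described in the labels. Joining was done over all features, so a set may also hold rows outside the range. With 1 row kept of each set, an alternative chosen after seeing the data, 405 rows of the range remained. The share of the 50 to 150 nt library was then 37.6% in place of 55.7%. At 15 to 50 nt it was 2.04% in place of 5.26%. In long RNA it was 0.895% in place of 6.95% with anti-MAEL and 0.494% in place of 4.07% with IgG, and their ratio was 1.81 in place of 1.71. The ratio of Mael-/- to wild-type small RNA shares was 6.19 in place of 6.45.

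The rows of 119 nt, the length that holds 29 of the RefSeq rRNA genes, were the most abundant in long RNA and in small RNA. ENSMUST00000097236, which stands for the set of 32, had 565708 counts (8208 CPM) at 50 to 150 nt and 19504 counts (112.9 CPM) at 15 to 50 nt. In long RNA it had 13991 counts (2434 CPM) in anti-MAEL replicate a, 10475 (964 CPM) in replicate b and 7874 (1011 CPM) with IgG. Anti-MAEL replicate a was high and replicate b lay slightly below IgG. In small RNA it had 56.5 and 48.3 CPM in wild type and 420 and 362 CPM in Mael-/-, and the genotypes did not overlap. On average that is 7.45 times as much by library totals, while the log2 fold change was 1.73 with TMM scaling, which sets libraries level on the bulk of their features, and 2.90 with library totals (edgeR). The 32 rows together held 26.3% of the 50 to 150 nt library, and 77.9%, 79.2% and 79.5% of the counts on all 482 rows in anti-MAEL replicate a, replicate b and IgG. Among the 50 rows with the most counts, 45 at 50 to 150 nt and 26 in anti-MAEL replicate a were rows of this range, and 0 were in each of the other 7 libraries. Near-identical rows rank together, so these are not counts of independent genes. The best row of the range ranked 32 in anti-MAEL replicate a, where the 32 rows span 13989 to 13992 counts. It ranked 89 in replicate b and 55 with IgG.

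The highest level in small RNA was on other 119 nt rows. ENSMUST00000083959 had 83.2 and 63.4 CPM in wild type and 594 and 765 CPM in Mael-/-. ENSMUST00000093691 had 72.1 and 54.0 CPM in wild type and 507 and 653 CPM in Mael-/-. These rows resembled each other in small RNA but not in the 50 to 150 nt library, where the first had 137337 counts and the second 1852. Both had fewer counts in long RNA than the set of 32: ENSMUST00000083959 had 282 and 288 with anti-MAEL and 245 with IgG, and ENSMUST00000093691 had 115 and 102 with anti-MAEL and 74 with IgG. ENSMUST00000093707, the next highest in small RNA, had only 1546 counts at 50 to 150 nt and 5, 9 and 4 counts in the long-RNA libraries.

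The rows of 116 nt were the highest per row at 50 to 150 nt. The row with the most counts in that library was a transcript of 1316 nt, ENSMUST00000165827, with 1992005 counts (2.89%), and the row of the range nearest to it was ENSMUST00000093721, of 116 nt, with 1891660 counts (27446 CPM, 2.74%). It was followed by ENSMUST00000101817, ENSMUST00000083099, ENSMUST00000082496, ENSMUST00000093716 and ENSMUST00000093725, all of 116 nt, with 1850324, 1843880, 1833902, 1776961 and 1775412 counts. Together, the 7 rows of 116 nt with over 1000000 counts held 18.5% of the library, and the lowest of them had 1765373 counts. The next row of 116 nt had 125727 counts. The 7 rows thus form a narrow group of near-equal level, well apart from the other rows of this length.

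At 15 to 50 nt these 7 rows had 103782 to 106358 counts (601 to 616 CPM), below most of the leading 121 nt rows and above the 119 nt rows. They were low in long RNA. They had 1 to 18 counts in anti-MAEL replicate a, 3 to 42 in replicate b and 4 to 35 with IgG. ENSMUST00000093721 had 18, 38 and 30 counts there, an anti-MAEL to IgG ratio of 0.875 (95% counting interval 0.552 to 1.41), so no difference was detectable at this depth. In small RNA its level was 26.9 and 35.2 CPM in wild type and 94.8 and 197 CPM in Mael-/-. The genotypes did not overlap, but the gap between both Mael-/- libraries was wider than that between the lower of them and the higher wild-type library.

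The rows of 121 nt, the length of the other 32 RefSeq rRNA genes, showed the opposite pattern: 50 of them had over 30000 counts each at 15 to 50 nt. ENSMUST00000116880 led with 171589 counts (993 CPM), and had 2226 counts (32.3 CPM) at 50 to 150 nt. ENSMUST00000116700, ENSMUST00000116852 and ENSMUST00000116896 followed with 154530, 154385 and 154382 counts at 15 to 50 nt and 2468, 2469 and 2476 at 50 to 150 nt. The 50 rows ranged from 38319 to 171589 counts at 15 to 50 nt and from 1310 to 2508 at 50 to 150 nt, and held 4.20% and 0.159% of these libraries. None of the 482 rows was among the 50 with the most counts at 15 to 50 nt, where the best of them ranked 117. The 121 nt rows therefore led these genes but not that library.

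**Figure D2:**
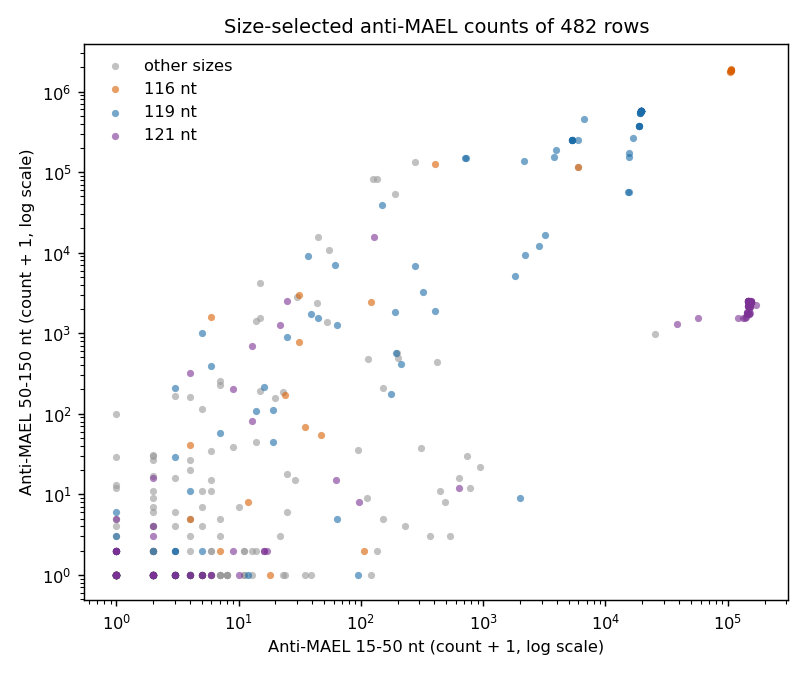
Counts of the 482 rows in the anti-MAEL library of 50 to 150 nt (vertical) against that of 15 to 50 nt (horizontal), with 1 added to each count and both axes on a log scale; each point is a row, coloured by length. The 7 leading 116 nt rows sit at the top (over 1000000 counts at 50 to 150 nt), the 119 nt rows form a band below them, and 50 rows of 121 nt cluster at the right with at most 2508 counts at 50 to 150 nt.

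The ratio of both fractions put numbers to this. With 0.5 CPM added to each level, and over rows averaging at least 1 CPM, the median log2 ratio of 50 to 150 nt over 15 to 50 nt was 5.44 for 14 rows of 116 nt, 6.18 for 79 rows of 119 nt and -4.62 for 57 rows of 121 nt. Over all 186 such rows it was 4.17, and over 9735 features of the tables it was -1.36. Each fraction is 1 library, so these ratios describe the libraries and have no replicate check. The lowest ratios were on ENSMUST00000175286 and ENSMUST00000116856, both of 121 nt and both at -5.12. The first had 139751 counts at 15 to 50 nt against 1566 counts at 50 to 150 nt.

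The highest ratios were on a pair of rows of different length, ENSMUST00000157475 (the greatest length, log2 ratio 9.91) and ENSMUST00000157084 (114 nt, 9.85). They had the same 81269 counts at 50 to 150 nt, the same 46 and 120 counts with anti-MAEL on long RNA and the same 126 with IgG. Their small RNA differed: ENSMUST00000157475 had 25 and 9 counts in wild type and 86 and 25 in Mael-/-, while ENSMUST00000157084 had 1039 and 449 in wild type and 2823 and 2395 in Mael-/-.

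The 15 to 50 nt fraction bound by anti-MAEL can also be set beside total small RNA of wild type, selected for the same lengths. The share of these genes was 15.5 times higher in the anti-MAEL library. This ratio moved with the denominator: it was 3.72 over Ensembl rows alone and 24.0 over all entries as listed. By length, the ratio was 77.6 for 121 nt, 19.5 for 116 nt and 2.04 for 119 nt. Among the other 7 lengths it ran from 0.337 (115 nt) to 167 (120 nt, where ENSMUST00000116680 held 147298 of 147999 counts at 15 to 50 nt), with 29.2 for 117 nt and 23.6 for the shortest length. The median log2 ratio over 141 rows of the range was 2.88, near the 2.52 over 8193 features. By length it was 5.74 over 53 rows of 121 nt, 4.28 over 9 rows of 116 nt and 1.10 over 65 rows of 119 nt. There is 1 anti-MAEL library of this size and no IgG library of this size was analysed here, so the background of the antibody at this size was not measured.

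**Figure D3:**
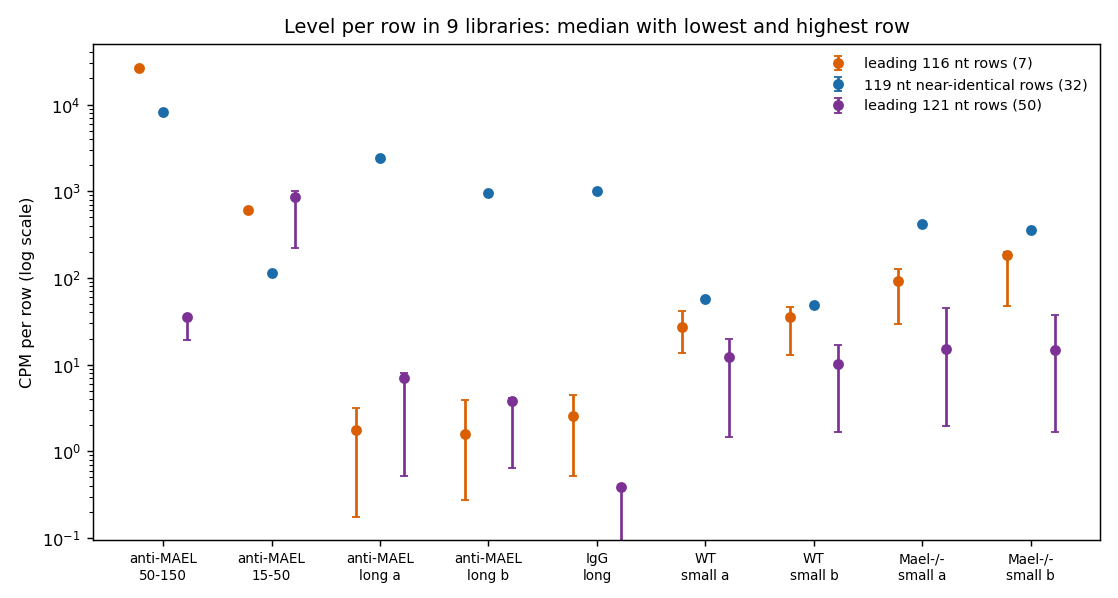
Level per row (CPM, log scale) in the 9 libraries for the 7 leading rows of 116 nt, the 32 near-identical rows of 119 nt and the 50 leading rows of 121 nt; points are medians over rows and whiskers run from the lowest to the highest row (for 121 nt with IgG the lowest row is 0 and the whisker leaves the axis). The 116 nt rows are highest at 50 to 150 nt (26608 CPM), the 121 nt rows at 15 to 50 nt (856 CPM) and the 119 nt rows in long RNA and in all 4 small RNA libraries.

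Summed over the rows, small RNA on these genes was higher in both Mael-/- libraries than in both wild-type libraries, mainly on rows of 119 nt, but few single rows passed the test. The test was edgeR's quasi-likelihood test on all 9906 features that passed its filter on low counts, with TMM scaling and 2 libraries per genotype, and 141 of the 482 rows passed the filter. At an adjusted p under 0.05, 8 of the 141 were called higher and 0 lower, beside 3.82% of all features called higher and 3.49% called lower. A share of that size is near the background and is no result about these genes in itself. Of the tested rows of 50 to 99 nt, 23 of 215 were called higher and 10 lower, and their median was 0.97 (log2 fold change). The 8 comprised 5 rows of 119 nt and 1 row each of 116 nt, 117 nt and 121 nt. The rows of a near-identical set move as one, so these counts are not counts of independent genes.

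By the rule for named rows, the called rows given here are ENSMUST00000083959, with a log2 fold change of 1.96 ± 0.503 (SE, adjusted p = 0.0439 with edgeR), and ENSMUST00000093691, with 1.95 ± 0.5002 (SE, adjusted p = 0.0439 with edgeR). Both Mael-/- libraries lay above both wild-type libraries for each, which the rule required of a row named here. Both rows lost the call with edgeR's RLE size factors in place of TMM, without the filter on low counts and without either wild-type library. Their log2 fold changes there were 1.56 to 2.32. The set of 32 rows of 119 nt had a log2 fold change of 1.73 with an SE of 0.511 and missed the threshold (adjusted p = 0.0582 with edgeR).

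Across the tested rows the log2 fold change had a median of 1.55 (quartiles 0.01 and 1.73), beside 0.15 over all features. It was above 0 for 108 of 141 rows, and 77 rows were higher at an unadjusted p under 0.05 (edgeR). The share of all features at that p is not given here. The tested rows include sets of near-identical rows, so neither number counts independent genes. All 68 tested rows of 119 nt lay above 0, from 1.03 to 2.94 with a median of 1.73. That median was 2.90 with library totals, 0.87 without Mael-/- replicate a and 2.29 without Mael-/- replicate b. The 8 tested rows of 116 nt also lay above 0, with a median of 0.77 (2.05 with library totals). The 52 tested rows of 121 nt had a median of -0.31 with TMM scaling, which turned to 0.88 when scaled by library totals, to 0.02 without wild-type replicate a and to 0.19 without Mael-/- replicate b.

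Library totals moved the whole table: the median of all features was 0.15 with TMM and 1.42 with library totals. Relative to it, the median of 121 nt rows was -0.46 with TMM and -0.53 with library totals, that of 116 nt rows was 0.63 and 0.63, and that of 119 nt rows was 1.58 and 1.48. With 1 library left out, these relative medians moved further. They ran from -1.13 to 0.04 for 121 nt rows, from 0.22 to 0.71 for 116 nt rows and from 0.68 to 2.15 for 119 nt rows. The number of rows called also moved. Library totals gave 105 called higher, DESeq2 64, edgeR's RLE size factors 3, and 0 were called lower in each. The share of all features called is not given here for these settings or those that follow. These numbers are therefore no result about these genes. Without wild-type replicate a or without wild-type replicate b, 0 were called in either direction. Without Mael-/- replicate b, 73 were called higher. Without Mael-/- replicate a, 8 were called higher and 5 lower, and the median of all tested rows fell to 0.81. The 32-row set passed the threshold with DESeq2 (adjusted p = 0.0140), with library totals, with the replicate letter as a block and without Mael-/- replicate b.

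**Figure D4:**
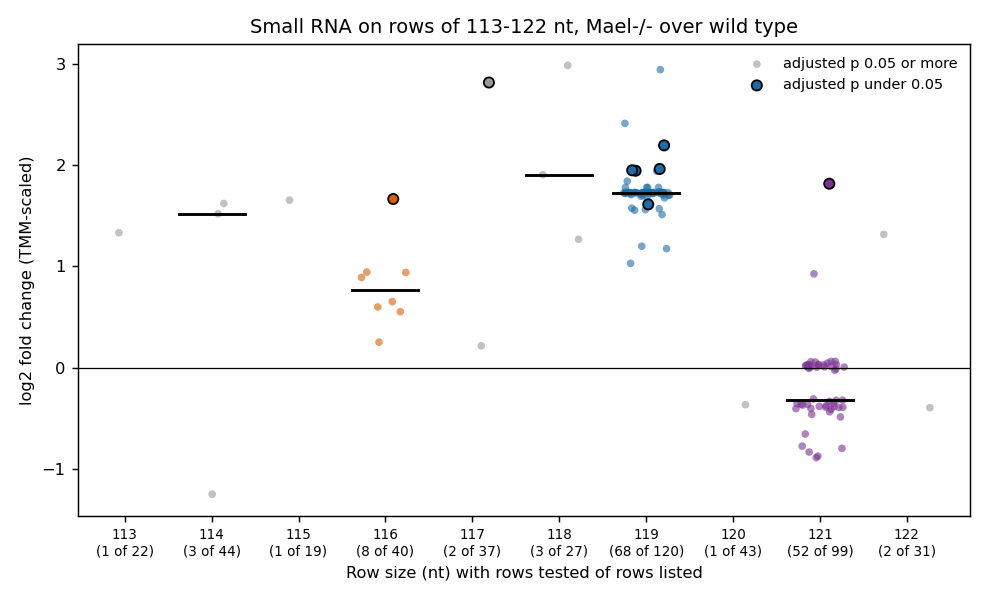
Log2 fold change of small RNA, Mael-/- over wild type (edgeR, TMM scaling), for the 141 tested rows by length; each point is a row, black lines are medians for lengths with at least 3 rows, outlined points have an adjusted p under 0.05, and labels give rows tested of rows listed. Rows of 119 nt gather near 1.73 and rows of 121 nt near or below 0, with 8 outlined rows in all.

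Rows of 121 nt with alike counts in the immunoprecipitates differed in small RNA. Sets were joined on all 9 libraries, small RNA included. Sets alike in the immunoprecipitates are therefore apart only through small RNA, and their contrast is a description. A set of 14 rows that includes ENSMUST00000116700 had medians of 154160 counts at 15 to 50 nt and 817 and 120 counts in wild-type small RNA. Another set of 14 rows of 120 or 121 nt, which includes ENSMUST00000116680, had 147696 at 15 to 50 nt and 213 and 36 in wild-type small RNA. In Mael-/- small RNA the medians were 916 and 171 counts in the first set and 184 and 38 in the second. With TMM the median log2 fold change was 0.03 in the first set and -0.38 in the second, where library totals gave 1.19 and 0.79. No row of either set passed the threshold with TMM.

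In long RNA, rows of 121 nt had more counts with anti-MAEL than with IgG, but at a depth of only a few counts with IgG. Their summed share was 0.0197% ± 0.00902 (SD, n = 2) with anti-MAEL and 0.00207% with IgG, a ratio of 9.55. With IgG the sum was 161 counts over 99 rows, and each row of both 14-row sets above had 3. Whether these are the same few reads counted on many rows was not tested, so the summed ratio may rest on few reads. ENSMUST00000116852 had 3 counts with IgG and, with anti-MAEL, 45 and 44. That is a ratio of 13.9 with a 95% counting interval of 4.61 to 68.7. ENSMUST00000116880, the leading row at 15 to 50 nt, had 3 counts with IgG and, with anti-MAEL, 17 and 10, a ratio of 4.22 (1.30 to 21.7). The 50 leading rows had 3 to 46 counts in replicate a, 7 to 45 in replicate b and 0 to 3 with IgG.

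The test of anti-MAEL over IgG covered 16066 features in 3 libraries, with the single IgG library assumed to vary like the anti-MAEL libraries. Of the 482 rows 132 passed the filter, and the rows of 121 nt passed it through the anti-MAEL libraries, where they are high, so their number and median are no support for a difference. With edgeR's quasi-likelihood test 0 of the 132 were called higher and 0 lower, beside 1.28% of all features called higher and 0% called lower. At an unadjusted p under 0.05, 34 were higher and 0 lower. The share of all features at that p is not given here, nor for the numbers by length below. DESeq2 called 28 higher and 0 lower, as did edgeR with library totals or with its RLE size factors. Without the filter edgeR called 30 higher. For these settings the share of all features called is not given here, so these numbers are no result about these genes. The lowest adjusted p of the edgeR test was 0.0684, and that of ENSMUST00000116852 was 0.0719, with a log2 fold change of 4.27 ± 0.957 (SE, edgeR).

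The median log2 fold change of the tested rows was 1.38, beside 0.02 over all features. For 51 rows of 121 nt it was 4.15, and 33 of them had an unadjusted p under 0.05 (edgeR). They passed the filter through the anti-MAEL libraries and include near-identical sets, so neither number supports a difference or counts independent genes. For 63 rows of 119 nt the median was 1.25 and 0 had an unadjusted p under 0.05 (edgeR), and DESeq2 called 0 of the 32-row set. For 6 rows of 116 nt it was 0.10, which turned to -0.21 with library totals, to -0.37 without the filter and to -0.15 without anti-MAEL replicate a. The value for 119 nt rows rested on 1 library: without anti-MAEL replicate a it was -0.027, and without replicate b 1.94. For 121 nt rows these values were 2.83 and 4.03. With 1 library against 1, neither has a test.

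**Figure D5:**
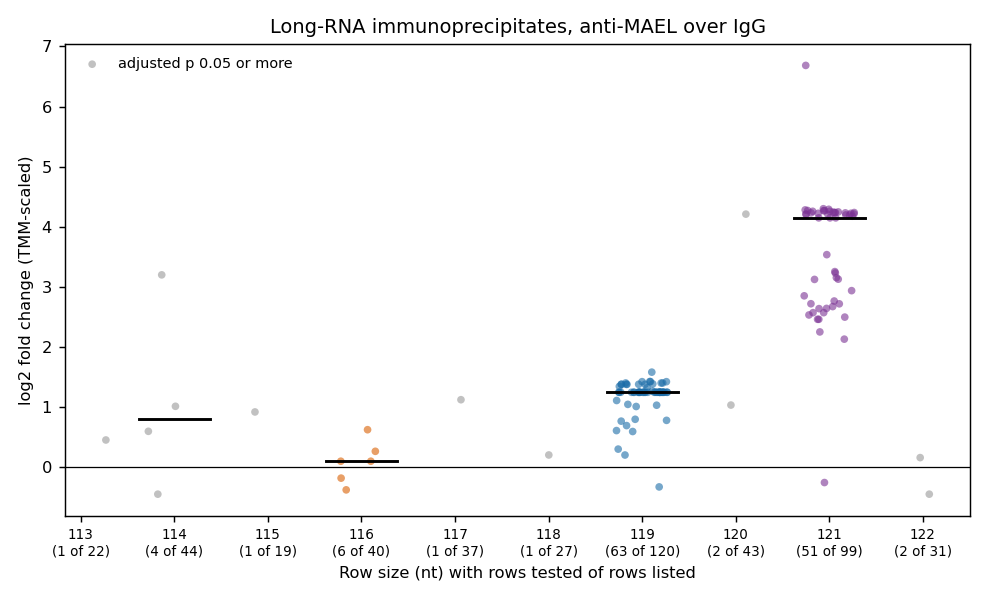
Log2 fold change of long RNA, anti-MAEL over IgG (edgeR, TMM scaling, 3 libraries), for the 132 tested rows by length; each point is a row, black lines are medians for lengths with at least 3 rows, and labels give rows tested of rows listed. Rows of 121 nt center on 4.15, rows of 119 nt on 1.25 and rows of 116 nt on 0.10, and no row has an adjusted p under 0.05. Rows of 121 nt passed the filter through the anti-MAEL libraries, so their median is no support for a difference.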

How the data were processed

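The deposited files hold raw read counts per transcript or piRNA locus, and the range of lengths is 113 to 122 nt. Genome build mm9, TopHat2 2.0.7, Bowtie2 2.0.6 and CASAVA 1.8 are listed, without roles, in the submitters' processing notes. Per the labels' protocols, long-RNA libraries used a kit without strand and the others a strand-specific one. Strand use in counting, and the handling of reads that match more than 1 row, are not given in the sources used here. Where a piRNA locus had several entries, that with the most counts stood for it in all totals. The test was edgeR 4.0.16 under R 4.3.3 (TMM, filterByExpr, quasi-likelihood test, Benjamini-Hochberg over all features), tested on simulated data, with DESeq2 1.42.0 as an alternative. Python 3.11.15 did the rest. Libraries of a group differed beyond sampling noise (chi-square per degree of freedom 51.5, 12.0 and 49.4 for anti-MAEL, wild-type and Mael-/- libraries), so each counted as 1 replicate. Named rows were the 6 highest at 50 to 150 nt, the 4 highest at 15 to 50 nt, in small RNA and in long RNA, the called rows with the largest change (at most 2 per direction, mean of at least 5 CPM, no overlap) and the extreme ratios of both fractions (2 at each end). Other identifiers, and the groups of leading rows, were chosen after their values were seen. The genes, lists and tests were chosen with earlier results of these data known. The level of Mael itself was not analysed here.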

Additional observations from a re-analysis of the deposited data

How the results depend on the processing

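The shares of counts moved with the denominator and with the rows kept. Over all entries as listed, the share was 53.5% at 50 to 150 nt, 4.51% at 15 to 50 nt, 3.997% with IgG, 0.188% in wild-type and 1.31% in Mael-/- small RNA. Over Ensembl rows alone these were 60.6%, 7.38%, 4.14%, 1.98% and 7.95%. With the 5 longest lengths alone the shares were 36.3%, 4.81%, 0.311% and 2.06% (50 to 150 nt, 15 to 50 nt, wild type, Mael-/-). With 1 row per set of identical rows they were 57.0%, 5.26% and 4.13% (50 to 150 nt, 15 to 50 nt, IgG). With 1 row per set of near-identical rows, chosen after seeing the data, they were 37.6%, 2.04%, 0.895% (anti-MAEL long RNA), 0.494% (IgG), 0.114% and 0.705%. The other alternatives for shares moved them by less than the spread between replicates or, with 1 library, the counting interval.

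Rows called higher in Mael-/- small RNA numbered 8, and 105 with library totals, 3 with DESeq2's size factors, 64 with DESeq2, 3 without the filter, 82 with a replicate block and 0 to 73 with 1 library left out. Rows called lower numbered 0, and 5 with the replicate block and 0 to 5 with 1 library left out. The share of all features called at these alternative settings is not given here. The median log2 fold change of the tested rows was 2.84 with library totals, beside 1.42 over all features. The labels do not say that the letters a and b pair the libraries, and with only 2 pairs the correlation of same-lettered deviations (0.51) decides nothing. With the block the median log2 fold change was 1.55, as without it.

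For rows called higher with anti-MAEL than IgG (0), library totals, edgeR's RLE size factors and DESeq2 gave 28 each and no filter 30. Shares of all features called at these settings are not given here. The median log2 fold change of the tested rows ranged from -0.027 to 1.94 with 1 anti-MAEL library left out. That leaves 1 library against 1, with no residual degrees of freedom and no test.

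Medians by length turned in a few cases. For 121 nt rows in small RNA the median was 0.88 with library totals and -0.93 to 0.19 with 1 library left out. For anti-MAEL over IgG, that of 116 nt rows was -0.21 with library totals, -0.37 without the filter and from -0.15 to 0.35 with 1 library left out, and that of 119 nt rows from -0.027 to 1.94. The cause of each change was not tested.

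The log2 ratio of 50 to 150 nt over 15 to 50 nt had a median of 5.05 with 0.1 CPM added, 0.00 with no filter (over all 482 rows) and 4.08 scaled to Ensembl rows. That of 15 to 50 nt over wild-type small RNA was 4.08, 0.049 and 1.16. Depth limits the anti-MAEL comparison on 121 nt rows, since the 50 leading rows have 0 to 3 counts each with IgG. Near-identical counts on many rows limit every count of rows.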
